A study of Mus musculus with 4 samples.

Results

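Mural cells, the pericytes and vascular smooth muscle cells of the vessel wall, were examined in KPC pancreatic tumor grafts by single-cell RNA-seq. Of 44554 cells with at least 200 detected genes, 306 were selected on their own expression values: at least 2 of 9 mural genes detected (Rgs5, Cspg4, Kcnj8, Abcc9, Notch3, Higd1b, Ndufa4l2, Trpc6 and Myh11), no transcript of Ptprc, Pdgfra or Lum, fewer than 2 of 5 endothelial genes and fewer than 4 of 7 epithelial genes. The 9 mural genes therefore chose the cells, and their levels are given as a description. In 3 of 6 clusters, which held 189 of the 306 cells, mural genes were broadly expressed, and these clusters included 2 cells of the ganciclovir-treated graft, 35 of its PBS control, 36 of the D-CAN-treated graft and 116 of its PBS control.

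The study asked how the loss of stromal cells that express PDGFRβ alters pancreatic tumors in obese mice. KPC cells, a mouse pancreatic cancer line, were grafted into the pancreas of male C57BL/6 mice raised on a high-fat diet for 24 weeks. In the first model the mice carried Pdgfrb-TK, a viral thymidine kinase driven by the Pdgfrb promoter, and received ganciclovir (Pdgfrb-TK/GCV, 50 mg/kg) or PBS (Pdgfrb-TK/PBS). In the second model wild-type mice received D-CAN, a peptide that homes to nonglycanated decorin on PDGFRβ+ adipose stromal cells and carries a pro-apoptotic sequence (30 mg/kg), or PBS (WT/PBS). Ganciclovir was injected into the abdomen and D-CAN under the skin, every other day for 25 days. The kinase makes dividing cells sensitive to ganciclovir, so its toxicity depends on division as well as on the Pdgfrb promoter. The labels give an age of 7 months and the methods 12 months, and the difference could not be resolved. Tumors were digested with enzymes and the suspensions pooled by treatment, so that each of the 4 conditions was 1 library, although the sample titles speak of a single mouse.

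Pericytes sit on capillaries within the basement membrane they share with the endothelium, and smooth muscle cells wrap the larger vessels. Both are recruited by endothelial PDGF-B through the receptor PDGFRβ, and both read Notch signals through Notch3. They set vessel tone with an actin and myosin contractile machinery that responds to endothelin, angiotensin and nitric oxide. In tumors the coat they form is often thin or loosely attached.

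Each condition was a lone library, so no value below could be set against a spread between replicates, and no test was made. The intervals given here are 95% intervals that cover counting error only (Clopper-Pearson for shares, exact Poisson for levels, exact binomial for ratios). The libraries held 127722502 transcript molecules (UMIs) in Pdgfrb-TK/GCV against 84020317 in Pdgfrb-TK/PBS, and 130115741 with D-CAN against 155408336 in WT/PBS. Depth of the selected cells was uneven. Their median was 13516.5 UMIs in Pdgfrb-TK/GCV and 2622.5 in its control, 6054 in D-CAN and 4967 in its control. Over all cells of the same libraries the medians were 6950, 5203, 4514.5 and 7421. Pairs of libraries shared 26 to 42 cell barcodes, and none of these belonged to a selected cell in both. More than 20% of UMIs were mitochondrial in 0 of 26, 1 of 60, 11 of 60 and 5 of 160 selected cells.

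The selected cells fell into 6 clusters, and the label held best for 3 of them. Rgs5, a regulator of G-protein signaling and a common pericyte marker, had a UMI in 87.9% of the 66 cells of cluster 0, 86.4% of the 66 of cluster 1 and 96.5% of the 57 of cluster 2, but in 7.02% of the 57 cells of cluster 3. It was in 65.7% of cluster 4 and 76% of cluster 5. Cluster 0 was led by Ednrb, an endothelin receptor. Art3, Zbtb16, Fabp4, Galnt17 and Gjc1, the gap junction protein connexin 45, were among its leading genes, as was S100a9, with UMIs in 5 cells. Cluster 1 was led by Cxcl1, Hspa1a, Il6, Ccl2 and Gadd45b, and 98.5% of its cells came from WT/PBS, so it may reflect that library rather than a type. Cluster 2 was led by Ctnna3, an alpha-catenin, with Itga4, Inpp4b, Trpc6 and Dmd.

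Clusters 3 and 4 went against the label, and cluster 5 could not be named. In cluster 3, with a median of 9548 UMIs, Col1a1 was detected in 100% of cells and Dcn, the proteoglycan decorin, in 63.2%. Clusters 0, 1 and 2 were shallower, with medians of 3883.5, 4992.5 and 2441 UMIs. There Col1a1 was in 68.2%, 87.9% and 70.2% of cells and Dcn in 9.09%, 22.7% and 5.26%. The part of depth in these shares was not tested. Leading genes of cluster 3 against the other selected cells included Timp1, Lox, Pappa and Mfap5. Against all cells outside the selection Acta2 led, with Ndufa4l2 and Tagln among the first 6 genes, and 21 of its 57 cells had at least 3 mural genes outside the selecting list. Its cells are described here as collagen-rich cells with some mural and contractile transcripts. In the 35 cells of cluster 4 the median was 21348 UMIs, 3.13 times the median of the cells' own libraries, Krt8 was detected in 100% and Hmga2 in 85.7%. Whether these were droplets with more than 1 cell was not tested. The 25 cells of cluster 5 were shallow, with a median of 1109 UMIs. Against the other selected cells they were led by Prss2, Reg3b and Try5, genes of the exocrine pancreas, which came from 3, 1 and 2 of the cells. Against all cells outside the selection they were led by Rgs5, with Mcam, Acta2 and Myl9 among the first 10 genes. At least 3 of 14 mural genes outside the selecting list were detected in 166 of the 189 cells of clusters 0 to 2 and in 36 of the 117 cells of clusters 3 to 5, so the boundary leaves some mural cells out and takes some doubtful cells in.

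**Figure D1:**
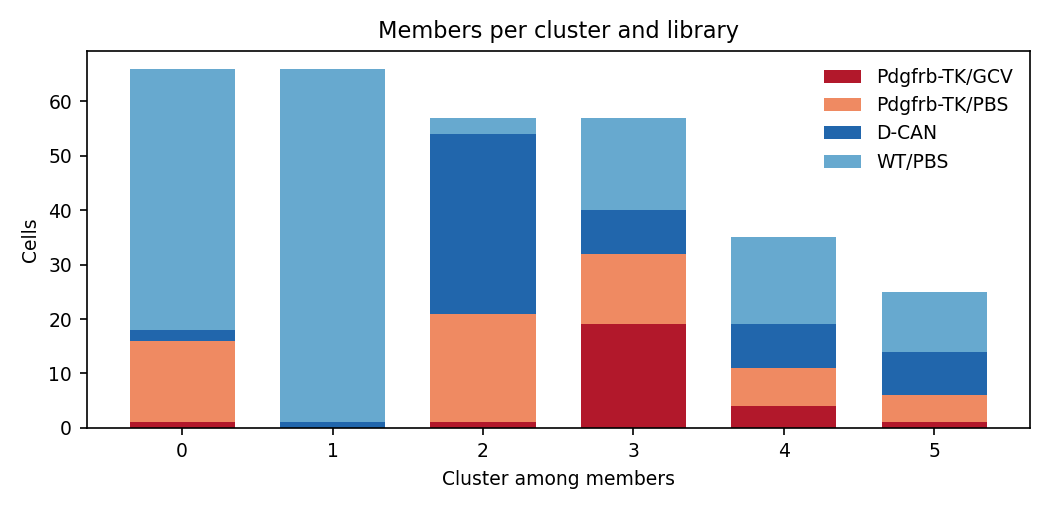
Number of selected cells in each of the 6 clusters, stacked by library. Pdgfrb-TK/GCV has 19 of its 26 cells in cluster 3, cluster 1 is nearly all WT/PBS (65 of 66 cells), and D-CAN has 33 of the 57 cells of cluster 2.

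Libraries drew on these clusters unequally. Of the 26 selected cells of Pdgfrb-TK/GCV, 19 lay in cluster 3. Pdgfrb-TK/PBS had 15 cells in cluster 0 and 20 in cluster 2, D-CAN had 33 in cluster 2, and WT/PBS had 48 in cluster 0 and 65 in cluster 1. Cluster 5 held 1 cell of Pdgfrb-TK/GCV, 5 of its control, 8 of D-CAN and 11 of WT/PBS. Accordingly Rgs5 was detected in 15.4% of selected cells in Pdgfrb-TK/GCV (interval 4.36 to 34.9) against 65.0% in Pdgfrb-TK/PBS (51.6 to 76.9), and in 83.3% with D-CAN (71.5 to 91.7) against 76.9% in WT/PBS (69.6 to 83.2). In tumor-like cells, chosen by epithelial genes, it was detected in 0.755% to 1.77% per library at deeper coverage (medians of 12001.5 to 29581 UMIs). Among selected cells the share was lowest in Pdgfrb-TK/GCV. Rgs5 was among the selecting genes, so these shares describe which genes brought the cells in.

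The number of mural genes required also sorted the cells. Exactly 2 of the 9 were detected in 19 of 26, 24 of 60, 22 of 60 and 39 of 160 selected cells (Pdgfrb-TK/GCV and its control, then D-CAN and its control), and at least 4 in 3, 30, 34 and 94. Among cells that met every other limit but had 1 mural gene, 275, 166, 212 and 345 in number, Rgs5 was present in 24.4%, 32.5%, 32.5% and 16.5%. It was present in 5.26%, 25%, 72.7% and 33.3% of those with exactly 2. The limits on Pdgfra and Lum alone removed 28, 50, 242 and 306 cells with 2 or more mural genes, the most in the wild-type model.

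**Figure D2:**
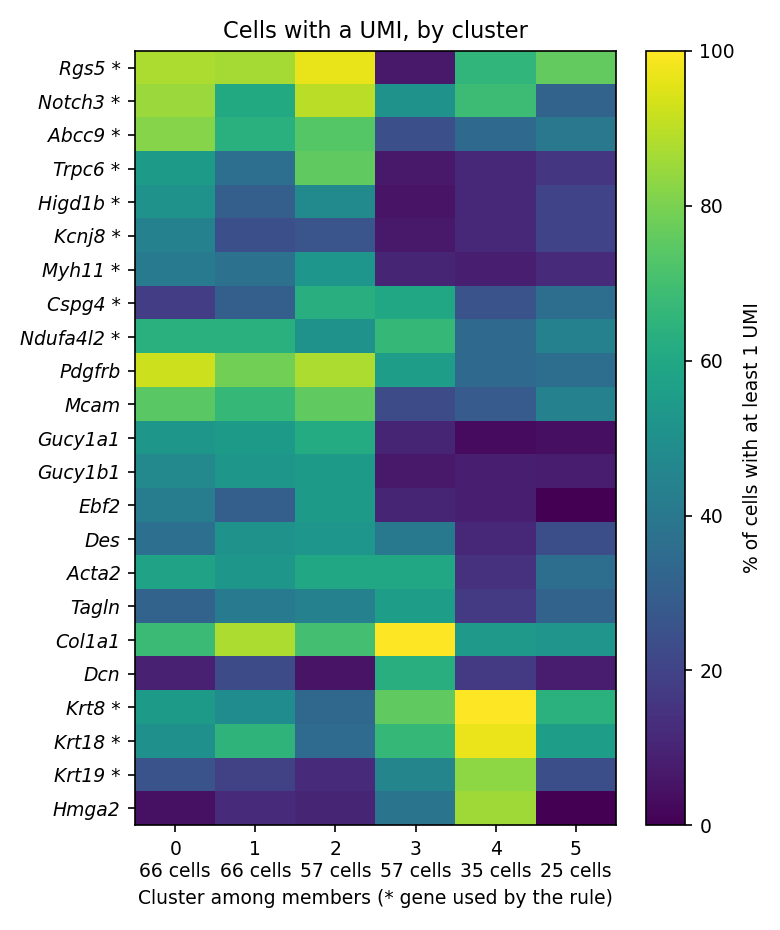
Percent of cells with at least 1 UMI of mural, contractile, fibroblast and epithelial genes in each of the 6 clusters, with an asterisk on genes used for selection. Rgs5 is present in over 86% of cells in clusters 0 to 2 and in 7.02% of cluster 3, where Col1a1 is present in 100%. Col1a1 is also present in 68.2%, 87.9% and 70.2% of cells in clusters 0, 1 and 2.

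Mural cells made up a smaller share of the treated grafts in both models, and the size of the difference in the ganciclovir model depended on which cells were counted. Selected cells were 0.212% of all cells in Pdgfrb-TK/GCV (26 of 12280, interval 0.138 to 0.310) and 0.573% in Pdgfrb-TK/PBS (60 of 10469, 0.438 to 0.737). They were 0.590% in D-CAN (60 of 10178, 0.450 to 0.758) and 1.38% in WT/PBS (160 of 11627, 1.17 to 1.60). The share was thus lowest after ganciclovir and highest in WT/PBS, and within each model the intervals of treated and control libraries did not overlap. The ratio of shares was 0.369 for ganciclovir (0.224 to 0.594) and 0.428 for D-CAN (0.313 to 0.580).

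In clusters 0 to 2 the shares were 0.0163% (2 cells), 0.334%, 0.354% and 0.998%, in the same order. The ratio was 0.0487 after ganciclovir (0.00568 to 0.190) and 0.355 after D-CAN (0.237 to 0.519). Cluster membership rests on the genes compared, so these ratios are a description of the libraries. The PBS libraries differed as well: Pdgfrb-TK/PBS had 0.416 times the share of WT/PBS, and against Pdgfrb-TK/PBS the D-CAN share was 1.03-fold (0.707 to 1.496). Cells with at least 4 mural genes and no limit on Pdgfra or Lum made up 0.0407%, 0.315%, 0.570% and 0.946%, giving ratios of 0.129 and 0.602. Thinning to 2000 UMIs before selection left 9049, 7591, 7407 and 9046 cells in the 4 libraries. On these the ratios were 0.226 (0.0828 to 0.534) and 0.374 (0.253 to 0.542). Sparse recovery in a digest and sparse presence in the tissue cannot be told apart in these shares.

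**Figure D3:**
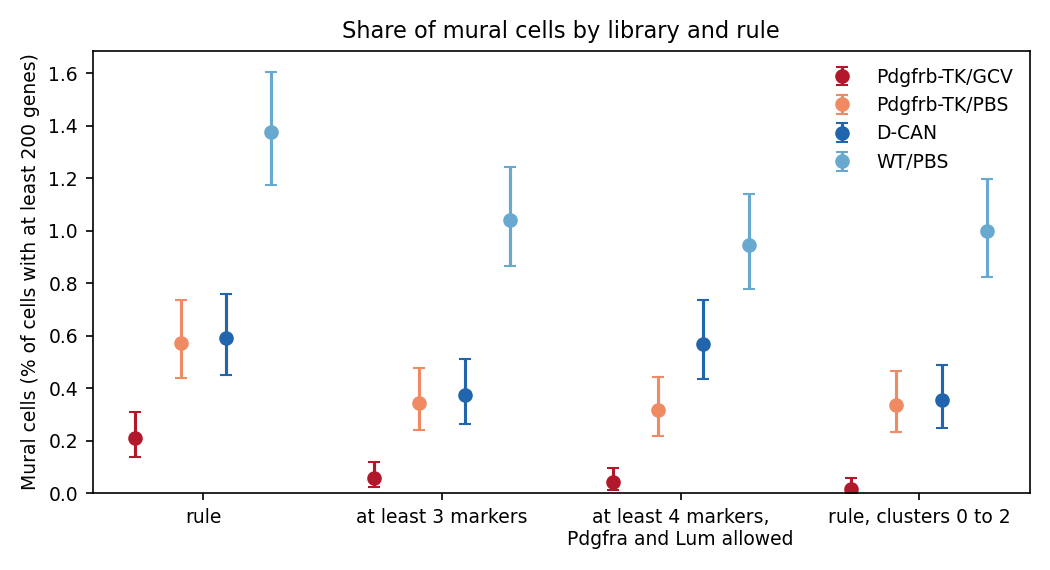
Mural cells as a percent of each library's cells with at least 200 genes, under the selecting rule, 2 other marker limits and in clusters 0 to 2, with 95% Clopper-Pearson intervals. In clusters 0 to 2 Pdgfrb-TK/GCV is at 0.0163% against 0.334% in its control, and D-CAN is at 0.354% against 0.998% in its control.

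Endothelial cells, chosen by vessel genes, were also scarcer in treated grafts: 0.261% in Pdgfrb-TK/GCV against 0.812% in Pdgfrb-TK/PBS, and 0.737% after D-CAN against 2.28% in WT/PBS. Their ratios were 0.321 after ganciclovir (0.207 to 0.487) and 0.323 after D-CAN (0.247 to 0.419). For each endothelial cell there were 0.0625 cells of clusters 0 to 2 in Pdgfrb-TK/GCV against 0.412 in Pdgfrb-TK/PBS, and 0.480 after D-CAN against 0.438 in WT/PBS. The ganciclovir library was the low one, with a ratio of 0.152 to its control (0.0169 to 0.657), and the remaining 3 lay close together. After D-CAN the ratio was 1.10 (0.675 to 1.76), so mural and endothelial cells were both scarcer than in WT/PBS, in similar proportion within this interval. When all selected cells were counted, the number per endothelial cell was 1.15 times the control after ganciclovir and 1.33 times after D-CAN. Per fibroblast-like cell, chosen by fibroblast genes, clusters 0 to 2 numbered 0.0138, 0.126, 0.0541 and 0.109, with ratios of 0.109 after ganciclovir (0.0126 to 0.437) and 0.498 after D-CAN (0.329 to 0.740).

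Expression was compared by summing UMIs over the cells of a library and scaling each sum to a common total, in counts per 1e6 UMIs (CPM). Because Pdgfrb-TK/GCV left only 2 cells in clusters 0 to 2, the ganciclovir comparison rests on all selected cells and the D-CAN comparison chiefly on clusters 0 to 2. In the 3 libraries with more than 2 such cells, these clusters held genes outside the selecting list at levels far above other cells. Gjc1, which couples mural cells electrically, was at 747 CPM in Pdgfrb-TK/PBS, 708 with D-CAN and 627 in WT/PBS, against 21.97, 23.2 and 28.6 in fibroblast-like cells. Gucy1b1, a subunit of the guanylate cyclase that senses nitric oxide, was at 221, 305 and 187 CPM against 8.54, 11.2 and 6.13. Pde3a, a phosphodiesterase of cyclic nucleotides, was at 772, 1435 and 791 CPM against 98.3, 107 and 95.3. Adap2, Lin7a, Rasl12, Rgs4, Itga7 and the smooth muscle transcript Carmn showed the same pattern. All of these genes were among the first in a ranking by this excess over fibroblast-like, endothelial and tumor-like cells. The ranking used the same 3 libraries, so the excess is a description only. Transcripts of other cells were present too. Summed over 10 macrophage genes the level in clusters 0 to 2 was 1005 CPM in Pdgfrb-TK/PBS, 114 with D-CAN and 98.7 in WT/PBS, with Ptprc at 0 by selection, against 417, 1028 and 576 CPM over all cells of these libraries. Over 3 neutrophil genes it was 600.3, 7.34 and 27.8 CPM against 258, 758 and 489, and over 10 tumor genes 2193, 132 and 552 CPM. In Pdgfrb-TK/PBS the macrophage and neutrophil sums were thus above those of the whole library. Pdgfrb-TK/PBS also had the lowest median depth of these 3 libraries in clusters 0 to 2, 2010 UMIs against 6419.5 and 4641.5. Whether its high values relate to depth, and their part in the results, was not tested.

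The receptor and the docking protein that the models address behaved differently. Pdgfrb (ENSMUSG00000024620), the PDGF-B receptor whose promoter drives the kinase, was at 91.6 CPM in selected cells of Pdgfrb-TK/GCV (interval 65.7 to 124) against 517 in Pdgfrb-TK/PBS (432 to 613), and 368 after D-CAN (328 to 412) against 376 in WT/PBS (345 to 410). Pdgfrb-TK/GCV was low and the wild-type pair overlapped, with log2 ratios of −2.48 (−3.04 to −1.98) and −0.03 (−0.24 to 0.18). The latter ratio was 0.62 in clusters 0 to 2, 1.01 over cells with at least 3 mural genes outside the selecting list and −0.09 in clusters 0 and 2 alone. Pdgfrb is itself among those outside genes, so the value of 1.01 rests on cells chosen partly by Pdgfrb. In the 2 remaining cells of clusters 0 to 2 after ganciclovir Pdgfrb stood at 833 CPM, with UMIs in both. In clusters 0 to 2 the other libraries gave 1274, 954 and 621 CPM, against 185, 199 and 133 in fibroblast-like cells and at most 1.2 in tumor-like cells.

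Dcn (ENSMUSG00000019929), at chromosome 10, bases 97479609 to 97518143 of mm10, encodes decorin. It was at 353, 262, 56.2 and 164 CPM in the selected cells of Pdgfrb-TK/GCV and its control, then D-CAN and its control. In clusters 0 to 2 it stood at 0, 73.5, 11.0 and 136 CPM, whereas fibroblast-like cells held 2902, 2593, 3382 and 1445. The D-CAN library was lowest of the 3 larger libraries in both groupings of mural cells and highest in fibroblast-like cells. Over selected cells the log2 ratio of D-CAN to WT/PBS was −1.52, but it turned to 0.43 over cells with at least 3 selecting genes and to 0.29 with equal weight per cell.

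Contractile genes stood out in D-CAN. Across all genes with at least 30 UMIs over D-CAN and WT/PBS in clusters 0 to 2, 11.8% were more than 2-fold higher in D-CAN and 13.6% more than 2-fold lower. Of the 16 contractile genes, 13 reached this minimum, 11 were higher and 0 lower, with a median log2 ratio of 1.61 against 0.04 for all genes. Acta2 (ENSMUSG00000035783), smooth muscle actin, at chromosome 19, bases 34241090 to 34255590 of mm10, was at 1029 CPM in Pdgfrb-TK/PBS (821 to 1274), 3324 with D-CAN (3111 to 3548) and 953 in WT/PBS (879 to 1031). D-CAN was high and the PBS libraries overlapped. The log2 ratio to WT/PBS was 1.80 (1.65 to 1.95), and without the D-CAN cell that gave 20.5% of the UMIs the level was 2838 CPM.

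Thin filament, motor and intermediate filament genes followed Acta2. Tagln, an actin-binding protein of smooth muscle, was at 478, 2466 and 1048 CPM in the same order of libraries. Tpm2, a tropomyosin, was at 319, 1431 and 315 CPM. Actg2, a second smooth muscle actin, was at 49.0, 418 and 46.3 CPM. In each of these D-CAN was the highest library, with log2 ratios to WT/PBS of 1.23, 2.18 and 3.15. Actg2 had UMIs in 7 of 36 D-CAN cells, and without the cell that gave 39.5% of them the level was 283 CPM. Des, the intermediate filament desmin, was at 208, 693 and 191 CPM (log2 1.85), and Mylk, the myosin light chain kinase, at 796, 1104 and 441 (log2 1.32). Tpm1, Myl9, Lmod1, Smtn and Synpo2 were also more than 2-fold higher, while the transcription cofactor Myocd (−0.10) was not. Among the selecting genes, the smooth muscle myosin Myh11 (282, 708 and 214 CPM) and the NG2 proteoglycan Cspg4 (159, 580 and 81.7 CPM) were highest in D-CAN too. The receptor Notch3 (894, 737 and 447 CPM), the potassium channel subunit Abcc9 (1201, 778 and 493) and its partner Kcnj8 (147, 158 and 111) were lowest in WT/PBS, as was the cation channel Trpc6 (625, 701 and 159).

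**Figure D4:**
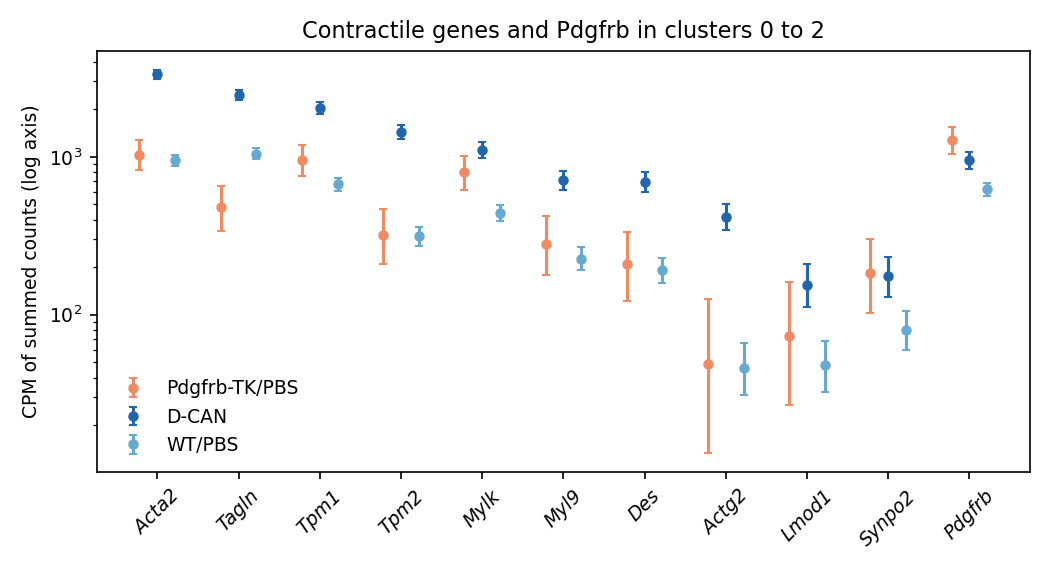
Levels of 10 contractile genes and Pdgfrb in clusters 0 to 2, in CPM on a log axis with 95% Poisson intervals, for the 3 libraries with more than 2 such cells. D-CAN lies above both PBS libraries for Acta2 (3324 against 1029 and 953) and Tpm2 (1431 against 319 and 315), but not for Synpo2.

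The PBS libraries of the 2 models differed less in these genes. In clusters 0 to 2 of Pdgfrb-TK/PBS over WT/PBS, where 9.16% of all tested genes were higher and 16.2% lower, 2 of 11 contractile genes were higher and 1 lower (median log2 0.31). In D-CAN over Pdgfrb-TK/PBS, where 12.9% of all genes were higher and 5.06% lower, 8 of 11 contractile genes were higher and 0 lower (median 1.33). These comparisons share libraries and are not independent. D-CAN drew 33 of its 36 cells from cluster 2 and WT/PBS 3 of 116, so treatment and the kind of mural cell cannot be told apart. Contractile genes summed to 1727 CPM in fibroblast-like cells of D-CAN against 2380 in WT/PBS, and to 730 against 631 in tumor-like cells. In endothelial cells they summed to 1037 against 489 CPM, higher in D-CAN as in the mural clusters.

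To compare cells at 1 depth, each was thinned to 2000 UMIs, which left 18 of 35 cells in Pdgfrb-TK/PBS, 27 of 36 in D-CAN and 104 of 116 in WT/PBS. Des was then detected in 33.3% (13.3 to 59.0), 63.0% (42.4 to 80.6) and 28.8% (20.4 to 38.6) of cells, and the D-CAN interval did not meet that of WT/PBS. Acta2 was detected in 50%, 70.4% and 47.1%, with overlapping intervals, against 34.3%, 80.6% and 55.2% unthinned. Tagln was detected in 22.2%, 59.3% and 32.7%, also with overlap. Mcam, an adhesion molecule of mural cells, was detected in 72.2%, 81.5% and 40.4%, Pdgfrb in 94.4%, 74.1% and 62.5%, and Rgs5 in 83.3%, 88.9% and 88.5%. Tumor-like cells thinned alike showed Acta2 in 0.376% to 1.39% of cells, and whether this came from free RNA was not tested.

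Many contractile genes carry a CArG box, the element bound by serum response factor, near their start. Promoter sequences from RefSeq (GRCm38.p6) were matched for 12 of the 17 genes formed by the contractile list and Myh11. Only the exact form of the box was searched: CC, then only A or T, then GG, 10 bases in all. Boxes that depart from this form were not counted, so a gene without a match may still hold one. Of the 12 genes, 1 (8.33%) had the exact form in the 250 bases before its start, against 439 of 27025 genes (1.62%). The gene was Myl9, the regulatory myosin light chain, whose level was 282 CPM in Pdgfrb-TK/PBS, 708 with D-CAN and 227 in WT/PBS. The box is shown because Myl9 is the 1 gene of the group with such a match, with the box in capitals, on the plus strand at chr2:156775293-156775322.
Myl9: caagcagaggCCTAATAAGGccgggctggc
The box begins 161 bases before the start of the gene. The match describes the letters in this window, and binding was not measured.

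Genes of the pericyte identity outside the selecting list differed less. Of 14, all passed the minimum and 3 were higher in D-CAN than in WT/PBS (Des, Ebf2 and Heyl), with 0 lower and a median log2 of 0.60. Ebf2, a transcription factor, was at 270 CPM in Pdgfrb-TK/PBS, 231 with D-CAN and 100 in WT/PBS, so both other libraries were above WT/PBS. Mcam was at 551, 627 and 338 CPM. Rgs5 (ENSMUSG00000026678), at chromosome 1, bases 169655501 to 169695813 of mm10, is a selecting gene, so its level is a description only. It was at 2830, 7001 and 3648 CPM, highest in D-CAN (log2 0.94 over WT/PBS).

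Genes of the Notch pathway gave a mixed picture. Of 9 tested, 1 was higher in D-CAN and 3 lower. Heyl, a mural target of Notch3, was at 61.3 CPM in Pdgfrb-TK/PBS, 176 with D-CAN and 86.3 in WT/PBS (log2 1.02). Hes1, a Notch target that also responds quickly to stress, was at 98.0, 91.7 and 507 CPM (log2 −2.45), high in WT/PBS alone among these 3 libraries. Nrarp, a feedback inhibitor of Notch, and Rbpj, the pathway's DNA-binding factor, were also lower (−1.31 and −1.33).

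Among receptors for vasoactive signals, 1 of 8 was higher and 1 lower. Agtr1a, the angiotensin II receptor, was at 233 CPM in Pdgfrb-TK/PBS, 183 with D-CAN and 49.3 in WT/PBS, and here WT/PBS was the low library. Avpr1a, a vasopressin receptor, had a log2 ratio of −1.57. The endothelin receptors Ednra (343, 283 and 248 CPM) and Ednrb (613, 521 and 603 CPM) were within 2-fold in all 3 libraries.

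Signals that mural cells send to the endothelium were few. Of 8 tested, Pdgfa (257, 440 and 194 CPM) and Tgfb3 (184, 95.4 and 44.7 CPM) were higher in D-CAN and Vegfa (0, 29.4 and 69.4 CPM) lower. Angpt1, the ligand of the endothelial receptor Tie2, was at 36.8, 33.0 and 21.6 CPM, too few UMIs to test.

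Few basement membrane genes differed by 2-fold between D-CAN and WT/PBS, and more interstitial matrix genes were lower. The interstitial direction depended on the cells summed: over all selected cells the median was −0.69, over cells with at least 3 selecting genes 0.35, and over clusters 0 and 2 alone 0.22. Of 14 basement membrane genes, 1 was higher (Agrn, agrin, log2 1.002) and 0 lower, with a median of 0.18. Col4a1, a collagen IV chain, was at 3136 CPM in Pdgfrb-TK/PBS, 2906 with D-CAN and 3188 in WT/PBS. Of 19 interstitial genes, 0 were higher and 6 lower, with a median of −0.36. Thbs2, thrombospondin 2, was at 73.5, 18.3 and 187 CPM (log2 −3.28), Postn, periostin, at 784, 536 and 1141 (−1.09), and the collagen cross-linker Lox at 24.5, 7.34 and 61.7 (−2.91). Tnc, Cthrc1 and Loxl1 were the other 3. Pdgfrb-TK/PBS over WT/PBS had 4 of 19 lower and 0 higher, where 16.2% of all tested genes were lower. Its median was −0.54 in clusters 0 to 2 but 0.37 over all selected cells. Eln, elastin of the arterial wall, was higher in D-CAN, at 0, 389 and 49.3 CPM (log2 2.95 over WT/PBS). Without the D-CAN cell that gave 37.7% of the Eln UMIs the level was 252 CPM.

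**Figure D5:**
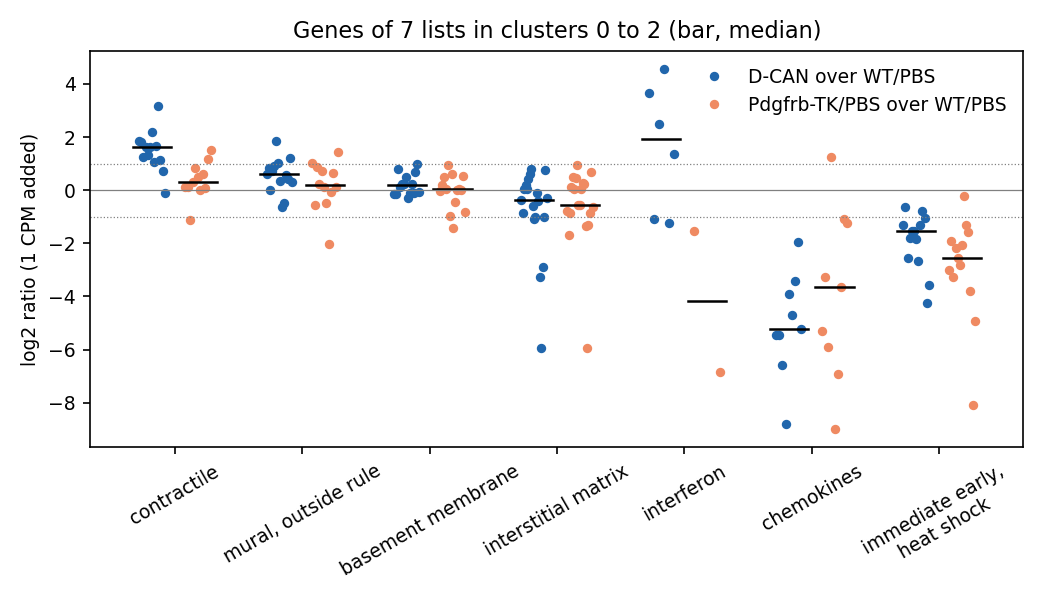
Log2 ratio (1 CPM added) of each gene of 7 lists in clusters 0 to 2, for D-CAN over WT/PBS and Pdgfrb-TK/PBS over WT/PBS, which share the WT/PBS library; points are genes with at least 30 UMIs, bars are medians and dotted lines mark 2-fold. Contractile genes have a median of 1.61 in D-CAN, and chemokines have medians of −5.23 and −3.66.

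WT/PBS mural cells were rich in chemokine and stress transcripts. Ccl2, a monocyte chemoattractant, was at 36.8 CPM in Pdgfrb-TK/PBS, 33.0 with D-CAN and 1494 in WT/PBS. Cxcl1, a neutrophil chemoattractant, was at 24.5, 14.7 and 1517 CPM, and Il6, an inflammatory cytokine, at 0, 33.0 and 509. WT/PBS alone of the 3 was high, chiefly through cluster 1, which held 65 of its cells, 1 of D-CAN and 0 of Pdgfrb-TK/PBS. In cluster 1 Cxcl1 was at 2270 CPM against 37.7 in all other selected cells, Ccl2 at 2228 against 110 and Il6 at 747 against 27.9. Over clusters 0 to 2, all 9 chemokine and adhesion genes tested were lower in D-CAN (median −5.23), and 8 of 9 were lower in Pdgfrb-TK/PBS (median −3.66). Both comparisons include cluster 1, so the presence of that cluster in WT/PBS and a change within mural cells cannot be told apart. Fibroblast-like cells of WT/PBS held these transcripts too: the whole list summed to 5504 CPM in clusters 0 to 2 and 5460 in fibroblast-like cells, where Ccl2 was at 1657, Cxcl1 at 1036 and Il6 at 279. In fibroblast-like cells of Pdgfrb-TK/PBS and D-CAN the sum was 759 and 2414 CPM. Of the 9 genes the exception in Pdgfrb-TK/PBS was Cxcl2, at 1078 CPM in Pdgfrb-TK/PBS, where 68.2% of its UMIs came from 1 cell, 0 in D-CAN and 450 in WT/PBS.

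Immediate early and heat shock genes had the same distribution, again with cluster 1 included, where Hspa1a and Hspa1b were among the leading genes. Of 13, D-CAN had 11 lower and 0 higher (median −1.56), and Pdgfrb-TK/PBS had 12 lower and 0 higher (median −2.56). Hspa1a, the inducible HSP70, was at 12.3, 191 and 3614 CPM, and Jun, a component of AP-1, at 159, 264 and 1537. In cluster 1, nearly all WT/PBS cells, Hspa1a was at 5173 CPM against 209 in all other selected cells. These genes were not particular to mural cells: their sum in WT/PBS was 12323 CPM in clusters 0 to 2, 10100 in fibroblast-like, 6551 in endothelial and 3259 in tumor-like cells, against 1495, 1879, 1070 and 1370 in Pdgfrb-TK/PBS. Stress during dissociation moves the same genes, and its part was not tested. In D-CAN over Pdgfrb-TK/PBS, 7 of 12 were higher and 1 lower (median 1.13).

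Interferon-responsive and cell cycle genes were higher in D-CAN. Iigp1, an interferon-induced GTPase, was at 61.3 CPM in Pdgfrb-TK/PBS, 279 with D-CAN and 10.8 in WT/PBS (log2 4.57). Without the D-CAN cell that gave 44.7% of the Iigp1 UMIs the level was 160 CPM. Bst2, tetherin, was at 85.8, 194 and 33.9 CPM (2.48). Of 6 tested, 4 were higher, among them these and Psmb8, and Irf1 and Cxcl10 were lower, with a median of 1.92. The whole D-CAN library shared this: the list summed to 913 CPM in its tumor-like cells and 2017 in its endothelial cells, against 108 and 702 in WT/PBS. Of 7 cell cycle genes 6 were higher, among them Mki67 (0, 128 and 41.6 CPM) and Top2a, a topoisomerase of dividing cells (49.0, 88.1 and 37.0 CPM), with a median of 1.23 that became 0.58 without cluster 1. In the hypoxia and glycolysis list 3 of 8 were higher and 2 lower, and of 6 p53 targets 3 were lower and 0 higher (median −1.12).

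The single genes with the largest ratios in clusters 0 to 2, among those with at least 100 UMIs and 100 CPM, extended these groups. Ctnna3 had UMIs in 22 of 36 D-CAN cells and 7 of 116 WT/PBS cells (log2 4.36). It was followed by Inpp4b, a phosphoinositide phosphatase (3.18), Actg2 (3.15), Eln (2.95), the intermediate filament nestin gene Nes (2.83), the selecting gene Cspg4 (2.81), Fam162a (2.66), Cnnm2 (2.48), Ppp1r14a, an inhibitor of myosin phosphatase (2.42), and Gpc6, a glypican (2.29). Ctnna3 and Inpp4b also led cluster 2. On the lower side Cxcl2 and Sema6a had no UMI in D-CAN and were at least 40.9-fold and 36.3-fold lower, taking 3 UMIs over the group as the limit. In WT/PBS 1 cell gave 57.1% of the Sema6a UMIs, and without it the limit was 16.4-fold. Sema6a was also a leading gene of cluster 1, at 594 CPM against 20.2 in all other selected cells. D-CAN had 1 cell in that cluster, so the Sema6a limit rests on WT/PBS cells of a cluster that D-CAN nearly lacks. Cxcl1 (−6.60), Serpinf1, which encodes the anti-angiogenic factor PEDF (−5.54), Ccl7 and Ccl2 (both −5.46), Tnfaip3, an inhibitor of NF-κB (−5.23), Galnt17 (−4.88), Tent5a (−4.41) and Gfpt2 (−4.25) followed. Cxcl1, Ccl7 and Ccl2 were leading genes of cluster 1 as well, so their ratios also go with that cluster.

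Over all 60 and 160 selected cells, D-CAN had 10.2% of tested genes more than 2-fold higher than WT/PBS and 10.8% lower. Contractile genes were higher in 5 of 14 and lower in 0 (median 0.66), chemokines lower in 9 of 10 and higher in 1 (Lif, 1.11). Cell cycle genes were higher in 12 of 13 (median 2.69) and interferon genes in 7 of 11 with 1 lower (2.07). The 8 cells of cluster 4 gave 60.4% of the D-CAN UMIs in these sums and the 16 of WT/PBS 34.3%, and the cell cycle median was 1.23 in clusters 0 to 2 and 0.58 in clusters 0 and 2. Ube2c, Cenpf and Top2a, all of mitosis, were among the 10 largest, with the interferon-induced chemokine Cxcl9, Anxa8, Tnnt2, Ctnna3 and Inpp4b. In D-CAN 1 cell gave 48.1% of the Ube2c UMIs, 45.1% of Cenpf, 46.6% of Top2a and 48.7% of Cxcl9. The mucosal peptide Tff1, with 98.9% of its UMIs from 1 cell, and the trypsinogen Try5, a gene of acinar cells, with 90.3% from 1 cell, were in the same group. Among the 10 largest on the lower side were Cxcl1, Ccl7, Ccl2, Il6, Hspa1a, Hspa1b and Gadd45b, all of them also leading genes of cluster 1. These sums include clusters 3 to 5: over 10 tumor genes the level in selected cells was 1276 CPM in Pdgfrb-TK/GCV against 3960 in Pdgfrb-TK/PBS, and 3918 after D-CAN against 1623 in WT/PBS, and over 5 acinar genes it was 24.6, 47.0, 233 and 6.60.

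After ganciclovir the few cells selected held low levels of most tested mural genes outside the selecting list. Of the selecting genes, Ndufa4l2 and Cspg4 were detected in 76.9% and 69.2% of these cells, against 45% and 40% in Pdgfrb-TK/PBS. The other selecting genes were detected in smaller shares than in that control. These shares were not adjusted for depth. Across all genes 8.49% were more than 2-fold higher than in Pdgfrb-TK/PBS and 11.8% lower. Of 14 mural genes outside the selecting list 5 reached the minimum, 0 were higher and 4 lower (median −2.09). In the 2 cells of clusters 0 to 2 against those of the control the median was 0.25, with 1 higher and 1 lower. Over all selected cells Mcam was at 76.0 CPM in Pdgfrb-TK/GCV and 239 in Pdgfrb-TK/PBS, Ebf2 at 26.8 and 117, and Gucy1a1, a subunit of guanylate cyclase, at 8.94 and 129. All 4 vasoactive receptors tested were lower (median −2.60), among them Ednra at 24.6 against 227 CPM. This median was −1.46 over cells with at least 3 selecting genes and −0.38 over the 3 receptors tested in clusters 0 to 2. Of 12 basement membrane genes 6 were lower and 0 higher (median −0.80), with Lama2, a laminin chain, at 13.4 against 157 CPM and Col4a1 at 755 against 1550. The basement membrane median was −0.11 over cells with at least 3 mural genes outside the list and 0.27 in clusters 0 to 2. These values go with the 19 of 26 cells in cluster 3, and cell makeup and treatment cannot be told apart.

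Other groups differed from the mural genes. Of 10 contractile genes 3 were higher and 3 lower (median 0.48), and this median turned to −1.13 over cells with at least 3 of the 9 selecting genes and to −0.20 over those with at least 3 mural genes outside the list. Of single genes, Tagln was at 1349 against 376 CPM and Tpm2 at 753 against 333, whereas Mylk was at 46.9 against 329. Of 19 interstitial matrix genes 1 was higher (Lox, 735 against 278 CPM) and 3, the collagen VI chains Col6a1, Col6a2 and Col6a3, lower, with a median of 0.00 that became 0.95 over cells with at least 3 mural genes outside the list and 0.91 in clusters 0 to 2. Hypoxia and glycolysis genes were higher in 10 of 11 (median 1.11), among them Vegfa, the vascular growth factor, at 471 against 117 CPM and Car9, a carbonic anhydrase induced by hypoxia, at 143 against 11.7. The same list summed to 4456 CPM in tumor-like cells of Pdgfrb-TK/GCV and 3317 in those of Pdgfrb-TK/PBS, and to 3428 and 1919 in fibroblast-like cells, but to 1401 and 1974 in endothelial cells and 1534 and 1593 in clusters 0 to 2. All 5 cell cycle genes tested were higher (median 1.61), 4 of 11 immediate early and heat shock genes were higher and 0 lower (median 0.81, but −0.77 against WT/PBS, and −1.38 for the 1 gene tested in clusters 0 to 2), and 2 of 5 p53 targets were higher, among them the cell cycle inhibitor Cdkn1a (log2 1.79).

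The largest single differences after ganciclovir included secreted factors on the higher side. Pappa2, a protease of IGF-binding proteins, and Il11, a cytokine of fibroblast activation, had no UMI in Pdgfrb-TK/PBS and were at least 19.8-fold and 19.03-fold higher, with 99.0% and 84.0% of the UMIs from 1 cell. Star (4.17), Ctla2a (4.15), the serine synthesis enzyme Phgdh (3.22), Pcsk5 (3.20), the alarmin Il33 (2.998), Pappa (2.85) and Tubb4b (2.53) followed. Ctla2a, Pappa, Pappa2 and Star were also leading genes of cluster 3 against the other selected cells. Cluster 3 gave 65.9% of the selected cells' UMIs in Pdgfrb-TK/GCV and 29.7% in Pdgfrb-TK/PBS. For these genes cell makeup and treatment cannot be told apart. On the lower side were the fatty acid carriers Fabp4 (−5.51) and Fabp5 (−2.87), Tff1 (−4.96), Gsta4 (−4.43), Dmbt1 (−4.14), Cxcl2 (−3.82), Ebf1, a transcription factor of mural and adipose lineages (−3.26), Pde3a (−3.18), the selecting gene Rgs5 (139 against 1115 CPM) and Mylk (−2.78). Against WT/PBS the ratios of Tff1, Gsta4 and Dmbt1 were −0.74, −0.50 and −0.29. These 3 genes were more abundant in tumor-like cells of Pdgfrb-TK/PBS (8463, 1459 and 717 CPM) than in its selected cells (1906, 552 and 489 CPM). Over 10 macrophage genes the selected cells held 76.0 CPM in Pdgfrb-TK/GCV and 356 in Pdgfrb-TK/PBS, and over 10 fibroblast genes 916 and 552, with Pdgfra and Lum at 0 by selection. The part of these transcripts in the single-gene ratios was not tested.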

How the data were processed

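The authors prepared 3' gene expression libraries (10x Chromium), aligned reads to mm10 (STAR 2.6 per the labels) and deposited 1 matrix of raw UMI counts per gene and cell for each of the 4 libraries, filtered by Cell Ranger (7.0.0 per the file headers). The protocol text in the labels describes nuclei of a brain region, which differs from the tumor digest in the methods. Cells with fewer than 200 genes were left out (44554 kept). The deposited barcodes exceed the number of cells per group that the methods state. No doublet caller was run, and an alternative left out the deepest 5% of cells.

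Members and gene lists were chosen with earlier results of these data known. Members were clustered with scanpy 1.11.5 (2000 variable genes, 10 principal components, 20 neighbours, Leiden resolution 0.8). Ratios are log2 of CPM with 1 CPM added, over genes with at least 30 UMIs in the compared libraries, and a difference was counted when it passed 2-fold. Single genes were named by rank of ratio among those past 2-fold with at least 100 UMIs and 100 CPM in the higher library, 10 per direction. Some genes the rule or lists cover are not reported here. The procedure was tested on simulated data. Alternatives changed the selection, depth, minimum and control library. Intervals and ratios were computed with scipy 1.17.1.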

Additional observations from a re-analysis of the deposited data

Results flagged for a closer look

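Transcripts of reporter genes were present outside the endogenous genes. Features named GFPcds and Tdtomato were listed in the D-CAN and WT/PBS files. Among selected mural cells of D-CAN 8.33% had a UMI of GFPcds and 15% one of Tdtomato, and in WT/PBS the values were 16.9% and 32.5%. In tumor-like cells the 4 corresponding values were 0.618%, 0.441%, 1.51% and 0.646%, and in endothelial cells 17.3%, 28.0%, 35.8% and 43.8%. The labels name no reporter, so the source of these transcripts was not tested.

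Some genes named in the report were past 2-fold in opposite directions in the 2 models over all selected cells. The difference between models was not tested, since each model had 1 library per arm. Ctla2a had a log2 ratio of 4.15 after ganciclovir and −2.67 after D-CAN, Phgdh 3.22 and −1.32, Pcsk5 3.20 and −3.70, and Pappa 2.85 and −2.81. Hspa1a had 3.08 and −4.25, and Hspa1b 1.26 and −3.86. Against Pdgfrb-TK/PBS in place of WT/PBS the D-CAN ratios of Hspa1a and Hspa1b were 2.02 and 0.027, so the opposite direction rests on the high WT/PBS level. In the other direction Tff1 had −4.96 and 3.804, Gsta4 −4.43 and 2.57, Fabp5 −2.87 and 1.67, and Cxcl9 −4.44 and 4.66. Set against Pdgfrb-TK/PBS, D-CAN was at 214 against 552 CPM for Gsta4, 559 against 446 for Fabp5 and 135 against 117 for Cxcl9. For Phgdh it was at 73.0 against 39.1, so these opposite directions also depend on the control library. Ctla2a (21.5 against 129 CPM), Pcsk5 (5.98 against 35.2) and Pappa (4.78 against 54.8) stayed lower in D-CAN. Ctla2a and Pappa were also leading genes of cluster 3 against the other selected cells. That cluster held 6.02% of the UMIs of selected cells after D-CAN and 16.0% of those of WT/PBS. After ganciclovir its share was 65.9%, while the PBS control of that model had 29.7%. The part of cluster 3 in the ratios of Ctla2a and Pappa was not tested. The D-CAN value of Tff1 rests on 1 cell with 98.9% of its UMIs and reversed under 5 alternatives, among them clusters 0 to 2 (−2.54). After ganciclovir 1 cell gave 70.1% of the Ctla2a UMIs, 61.7% of those of Phgdh and 53.7% of those of Pcsk5.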

How the results depend on the processing

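Each arm was 1 library, leaving no replicate to omit, and no paired analysis was possible because no test was made and the conditions share no replicates. Small numbers of cells limited the expression ratios, above all after ganciclovir.

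Of 20 alternative ratios of shares, 13 moved by less than their counting interval. The ganciclovir ratio became 0.166 with at least 3 mural genes, 0.195 with at least 3 genes outside the selecting list, 0.0487 in clusters 0 to 2, 0.129 with at least 4 mural genes and no Pdgfra or Lum limit, and 0.154 against WT/PBS, and was 0.226 with cells thinned before selection. The D-CAN ratio became 0.602 with at least 4 mural genes and no such limit, and reversed to 1.03 against Pdgfrb-TK/PBS.

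Of 42 counts of genes past 2-fold, 19 stayed within 1.5 times the reported count. For ganciclovir (347 higher and 482 lower of 4087 tested genes), the number of genes tested changed too. The counts were 220 and 206 of 1598 with at least 3 outside genes, 151 and 201 of 1180 with at least 3 mural genes, and 66 and 82 of 474 in clusters 0 to 2. They were 2947 and 3783 of 14475 with no minimum, 110 and 91 of 1238 with a minimum 3 times as high, and 564 and 1419 of 7357 against WT/PBS. With equal weight per cell 615 were higher. For D-CAN over all selected cells (833 and 877), they were 373 and 333 in clusters 0 and 2, 506 and 559 with 10 CPM added, 3026 and 2795 with no minimum, 304 and 407 with a minimum 3 times as high, and 502 and 326 against Pdgfrb-TK/PBS.

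Of 266 list medians 44 changed sign, and 5 of these had been past 2-fold and are called reversed here. For ganciclovir the interferon list became 0.70 with at least 3 outside genes and 0.40 against WT/PBS, while in clusters 0 to 2 the outside mural list became 0.25 and the hypoxia list −0.23. For D-CAN the immediate early list became 0.19 against Pdgfrb-TK/PBS. Medians that changed sign from within 2-fold included contractile genes after ganciclovir (−1.13, −0.20) and, after D-CAN with at least 3 selecting genes, basement membrane (0.39) and vasoactive receptors (0.57). The ganciclovir basement membrane median turned to 0.27 in clusters 0 to 2. Of 426 single-gene ratios 17 changed sign. After ganciclovir these were Acta2 (−0.97 with at least 3 selecting genes, −0.24 with at least 3 outside genes) and Dcn (−0.64 with at least 3 outside genes), and after D-CAN Pdgfrb, from −0.03 (1.01 with at least 3 outside genes, which include Pdgfrb itself, 0.89 with at least 3 selecting genes, 0.62 in clusters 0 to 2, 0.13 with equal weight per cell). The 10 that had been past 2-fold were all for D-CAN: Tff1 (−2.03, −2.11, −2.54, −2.75 and −0.42), Dcn (0.43 with at least 3 mural genes, 0.29 with equal weight per cell) and, against Pdgfrb-TK/PBS, Ccl2 (1.15), Hspa1a (2.02) and Hspa1b (0.027). The causes were not tested.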
